A study of Rattus norvegicus with 8 samples.

Results

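Vegfa, its receptors Kdr and Flt1, and the endothelial markers Pecam1, Tek and Cdh5 were followed across 4 zones of the rat femur growth plate at 46 and 42 days of age. The genes were chosen by name, and every probe set that the array's annotation assigns to exactly 1 of them was taken. Of the 6 genes, 5 had a probe set, with 9 probe sets in all of the 31042 analysed. Kdr and Vegfa had 2 each, Flt1 had 3, and Pecam1 and Tek had 1 each. Cdh5, the cadherin of endothelial junctions, was skipped under this rule and is not analysed here.

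The series holds 8 arrays from Rattus norvegicus femurs, 1 per zone and age, from the perichondral, reserve, proliferative and hypertrophic zones. Each array received amplified, biotin-labelled RNA pooled from 3 rats, and the sources used here name no strain, sex, genotype or treatment. Every zone therefore has n = 2 arrays that also differ in age. A p-value without age in the model rests on the spread between such pools, ages included, which limma moderates toward that of all probe sets. It does not measure the spread between single rats. The sources used here do not say how the zones were separated or whether zones share animals.

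VEGF-A is the secreted growth factor that directs the growth of blood vessels. It signals mainly through the receptor tyrosine kinase VEGFR2, encoded by Kdr, while VEGFR1, encoded by Flt1, binds the same ligand tightly with weaker kinase activity and can hold it away from VEGFR2. In the growth plate the cartilage itself has no vessels, and hypertrophic chondrocytes are known to secrete VEGF-A, which draws vessels and bone-forming and bone-resorbing cells in from the metaphysis. Tek encodes TIE2, the angiopoietin receptor of endothelial cells, and Pecam1 encodes CD31, an adhesion protein of endothelial cells, platelets and some leukocytes.

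The promoter windows of the ligand gene and both VEGF receptor genes are shown. Kdr and Flt1, receptors for one ligand, had the highest zone means of their brightest probe sets in different zones. Neither gene passed the test between zones given below, and their dimmer probe sets gave other orders. Each sequence is the RefSeq window from 250 bases before to 50 bases after the start site in build GRCr8, all on the + strand. RefSeq windows were found for 3 of the 6 genes. The windows are chr9:22452604-22452903 for Vegfa, chr14:32571813-32572112 for Kdr and chr12:12333180-12333479 for Flt1. Capitals mark the motifs searched on both strands, which were the hypoxia response cores ACGTG and GCGTG, the GC box GGGCGG, the ETS cores CGGAAG and GGAAGT, and the TATA box TATAAA.
Vegfa: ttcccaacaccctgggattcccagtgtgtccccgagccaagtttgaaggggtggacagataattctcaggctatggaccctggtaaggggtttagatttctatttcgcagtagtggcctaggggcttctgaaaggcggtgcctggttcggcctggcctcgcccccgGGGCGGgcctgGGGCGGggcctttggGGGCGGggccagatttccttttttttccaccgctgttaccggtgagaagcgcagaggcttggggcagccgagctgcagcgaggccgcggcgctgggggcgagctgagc
Kdr: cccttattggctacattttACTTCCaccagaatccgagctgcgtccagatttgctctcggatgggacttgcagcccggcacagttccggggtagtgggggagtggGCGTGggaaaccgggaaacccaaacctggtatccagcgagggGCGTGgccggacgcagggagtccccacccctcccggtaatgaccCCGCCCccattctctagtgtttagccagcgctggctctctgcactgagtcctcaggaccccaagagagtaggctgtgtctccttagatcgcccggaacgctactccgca
Flt1: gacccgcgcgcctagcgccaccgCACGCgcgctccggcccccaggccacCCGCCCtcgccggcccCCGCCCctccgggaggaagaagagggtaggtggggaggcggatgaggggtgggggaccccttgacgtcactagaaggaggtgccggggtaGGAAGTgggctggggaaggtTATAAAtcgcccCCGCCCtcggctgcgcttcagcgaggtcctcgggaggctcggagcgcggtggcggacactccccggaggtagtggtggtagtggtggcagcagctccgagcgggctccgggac

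The Kdr window held 2 matches to GCGTG, 1 to GGGCGG and 1 to GGAAGT. The Flt1 window held 1 match to GCGTG, 3 to GGGCGG, 1 to GGAAGT and 1 to TATAAA. The Vegfa window held 3 matches to GGGCGG and none to the other letters, and another Vegfa window in the table held none of them. No match to ACGTG or CGGAAG lay in these windows. Of 33469 promoter windows of this length, 29.7% held GCGTG, 33.1% GGGCGG, 22.6% GGAAGT, 14.2% TATAAA, 19.3% ACGTG and 16.6% CGGAAG. The matches describe letters only, and sequence further from the start sites was not searched, so a motif there would not be seen. The Flt1 window was the most GC-rich of the 3 at 72.7%, against 63.3% for Vegfa, 61% for Kdr and a median of 51.7% over all windows.

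Values are deposited linear intensities, and levels below are log2(intensity + 16) after quantile normalization between arrays, on which the median of all probe sets was 8.25. Differences on this scale understate those of dim genes. To gauge background signal, 34 genes known for liver, kidney, heart or other non-skeletal organs were read from these arrays. The 0.95 quantile of their values was 9.06 and is called the other-organ level. Of all values in the series 29.6% lay above it. Median deposited intensities ran from 226.7 to 349 over the 8 arrays. RNA quality was followed by the ratio of 3' to 5' Gapdh control signal, from 3.63 to 8.15.

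Kdr was the member that stood apart most between zones. Its brighter probe set, 1367948_a_at, had deposited intensities of 750.7 and 738.4 in perichondral arrays at 46 and 42 days, 2893 and 3579 in reserve arrays, 469.3 and 90.14 in proliferative arrays, and 740.1 and 1572 in hypertrophic arrays. As log2 levels these were 9.58 and 9.59 in perichondral, 11.50 and 11.58 in reserve, 8.69 and 6.88 in proliferative, and 9.49 and 10.62 in hypertrophic arrays. Both reserve arrays lay above every other array, both proliferative arrays lay below every other array, and the perichondral and hypertrophic arrays overlapped. The proliferative arrays were the only ones of Kdr below the other-organ level.

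The zone means of Kdr differed by up to 3.75, which is a larger span than that of 99% of all probe sets, with a spread within zones of 0.75. The median span of all probe sets was 1.5 and the median spread within zones 0.96. In limma's moderated F test over the 4 zones Kdr ranked 67 of 31042 probe sets by p-value and was not called (Benjamini-Hochberg adjusted p = 0.2826). Reserve exceeded proliferative arrays by 3.75 (SE 0.70, 95% interval 2.27 to 5.24), with both reserve arrays higher. Both proliferative arrays lay below the other-organ level, so no fold is given. With all 8 arrays this difference missed the threshold of 0.05 without age in the model (limma, adjusted p = 0.08315). It passed with age as a replicate block (adjusted p = 0.02496). Whether it was called also depended on which arrays entered, as given in the closing section. Over all alternatives tried its adjusted p ran from 0.02496 to 0.9999, the highest being without the 42-day reserve array, and the difference ran from 2.01, with both probe sets averaged, to 4.71.

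The other differences of Kdr between zones were smaller and none was called with limma. Perichondral minus reserve was -1.96 (SE 0.70, adjusted p = 0.9999) and perichondral minus proliferative 1.80 (SE 0.70, adjusted p = 0.9626). Proliferative minus hypertrophic was -2.27 (SE 0.70, adjusted p = 0.8639). In each of these pairs the arrays of the zones did not overlap. Reserve exceeded hypertrophic arrays by 1.49 (SE 0.70, adjusted p = 0.6164), again without overlap. Perichondral and hypertrophic arrays could not be ordered, with a difference of -0.47 (95% interval -1.95 to 1.02). The zone means of this probe set thus ran in the order reserve, hypertrophic, perichondral and proliferative. This is an order of means only, as no pair was called without age in the model and the middle pair overlapped. The dimmer Kdr probe set, described below, had another order.

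**Figure D1:**
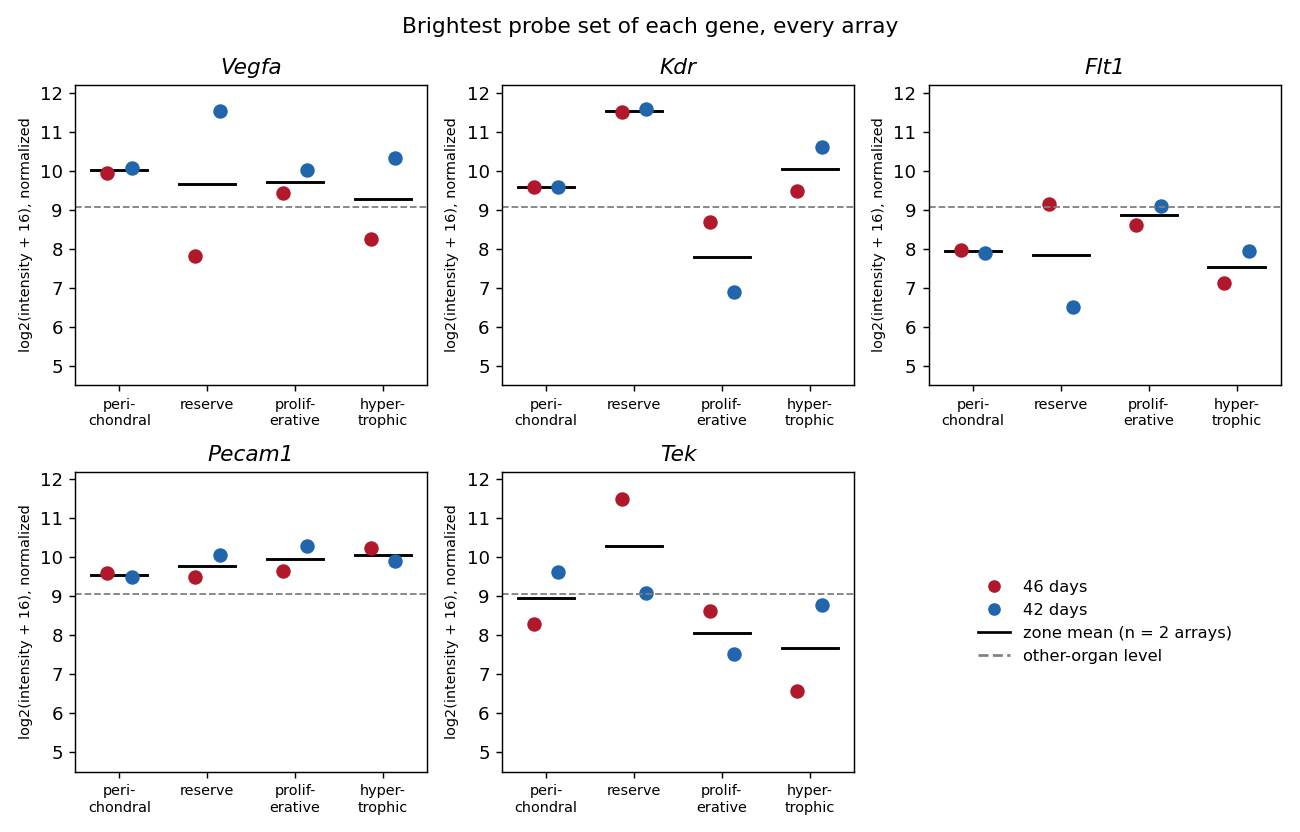
Level of the brightest probe set of each gene in every array. The y axis is log2(intensity + 16) after quantile normalization, points are single arrays (46 days left, 42 days right of each zone), bars are zone means of n = 2 arrays and the dashed line is the other-organ level of 9.06. Kdr is highest in both reserve arrays, Pecam1 lies within 9.49 to 10.30 throughout, and the widest gaps within a zone are those of Vegfa, Flt1 and Tek in reserve arrays.

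Vegfa, the ligand, did not separate the zones. Its brighter probe set, 1373807_at, was at 9.95 and 10.06 in perichondral arrays at 46 and 42 days, 7.80 and 11.52 in reserve, 9.42 and 10.01 in proliferative, and 8.24 and 10.32 in hypertrophic arrays. The deposited intensities were 962.8 and 1054 in perichondral, 209.1 and 3432 in reserve, 724.2 and 1007 in proliferative, and 318.8 and 1256 in hypertrophic arrays. The highest and the lowest array both came from the reserve zone, and every pair of zones overlapped. Vegfa was above the other-organ level in 6 of 8 arrays, all but the 46-day reserve and hypertrophic ones.

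The perichondral zone had a Vegfa mean of 10.01 ± 0.08 and the reserve zone one of 9.66 ± 2.63, the proliferative zone 9.71 ± 0.41 and the hypertrophic zone 9.28 ± 1.47 (SD, n = 2 each). The span of 0.72 was smaller than the spread within zones of 1.52 (limma F test, adjusted p = 0.9762). Perichondral minus hypertrophic, the widest pair, was 0.72 (SE 0.96, 95% interval -1.31 to 2.76, adjusted p = 0.9353), so the interval allows a difference in either direction. Without the 46-day hypertrophic array it was -0.32, and without the 42-day one 1.77. Col10a1, the collagen that marks hypertrophic chondrocytes, was highest in the hypertrophic arrays at 16.10, where Vegfa had its lowest zone mean. It was at 13.72 in perichondral, 11.33 in reserve and 11.78 in proliferative arrays. Within the hypertrophic zone the 42-day array exceeded the 46-day one in both genes, Col10a1 (16.93 and 15.26) and Vegfa (10.32 and 8.24). Not all markers of hypertrophic chondrocytes peaked in this zone. Of 8 measured hypertrophic chondrocyte genes, 4 had their highest zone mean in hypertrophic, 3 in reserve and 1 in proliferative arrays.

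Tek, the angiopoietin receptor, had its highest zone mean in reserve arrays, where single arrays differed widely. It was at 8.28 and 9.62 in perichondral arrays at 46 and 42 days, 11.49 and 9.09 in reserve, 8.63 and 7.51 in proliferative, and 6.58 and 8.79 in hypertrophic arrays. The 46-day reserve array was the highest of the 8 and the 46-day hypertrophic array the lowest. Tek was above the other-organ level in 3 arrays, both reserve arrays and the 42-day perichondral one.

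Reserve exceeded proliferative arrays in Tek by 2.22 (SE 0.99, limma, adjusted p = 0.6363) and hypertrophic arrays by 2.61 (SE 0.99, adjusted p = 0.5404), with no overlap in either pair. Neither was called. Without the 46-day reserve array these were 1.02 and 1.43, and without the 42-day one 3.34 and 3.74. Perichondral overlapped each other zone, and the means were 8.95 ± 0.95 for perichondral, 10.29 ± 1.70 for reserve, 8.07 ± 0.79 for proliferative and 7.68 ± 1.56 for hypertrophic arrays (SD, n = 2 each). The F test gave an adjusted p of 0.8433.

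Flt1, the receptor that can act as a decoy, was dim. Its brightest probe set, 1377113_at, was at 7.96 and 7.90 in perichondral arrays at 46 and 42 days, 9.14 and 6.51 in reserve, 8.60 and 9.10 in proliferative, and 7.11 and 7.93 in hypertrophic arrays. It passed the other-organ level in 2 arrays, by less than 0.1, the 46-day reserve and the 42-day proliferative one. Proliferative arrays had the highest zone mean of this probe set, the opposite end from the brighter Kdr probe set. They exceeded hypertrophic arrays by 1.33 (SE 1.05, 95% interval -0.89 to 3.56, limma, adjusted p = 0.935). That pair did not overlap, and the F test was not called (adjusted p = 0.9208). The other Flt1 probe sets differed, as 1370492_a_at had its lowest zone mean in proliferative arrays (5.56) and 1369087_at its highest in perichondral arrays (7.90).

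Pecam1, the platelet and endothelial adhesion protein, varied least. It was at 9.61 and 9.50 in perichondral arrays at 46 and 42 days, 9.49 and 10.07 in reserve, 9.64 and 10.30 in proliferative, and 10.24 and 9.91 in hypertrophic arrays. All 8 arrays lay above the other-organ level. The zone means spanned 0.52, a span larger than that of only 5.3% of all probe sets (limma F test, adjusted p = 0.9618). Perichondral minus hypertrophic, its widest pair, was -0.52 (SE 0.61, 95% interval -1.81 to 0.77, adjusted p = 0.925), and the arrays of this pair did not overlap. The interval leaves room for differences of more than 1 in Pecam1.

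**Figure D2:**
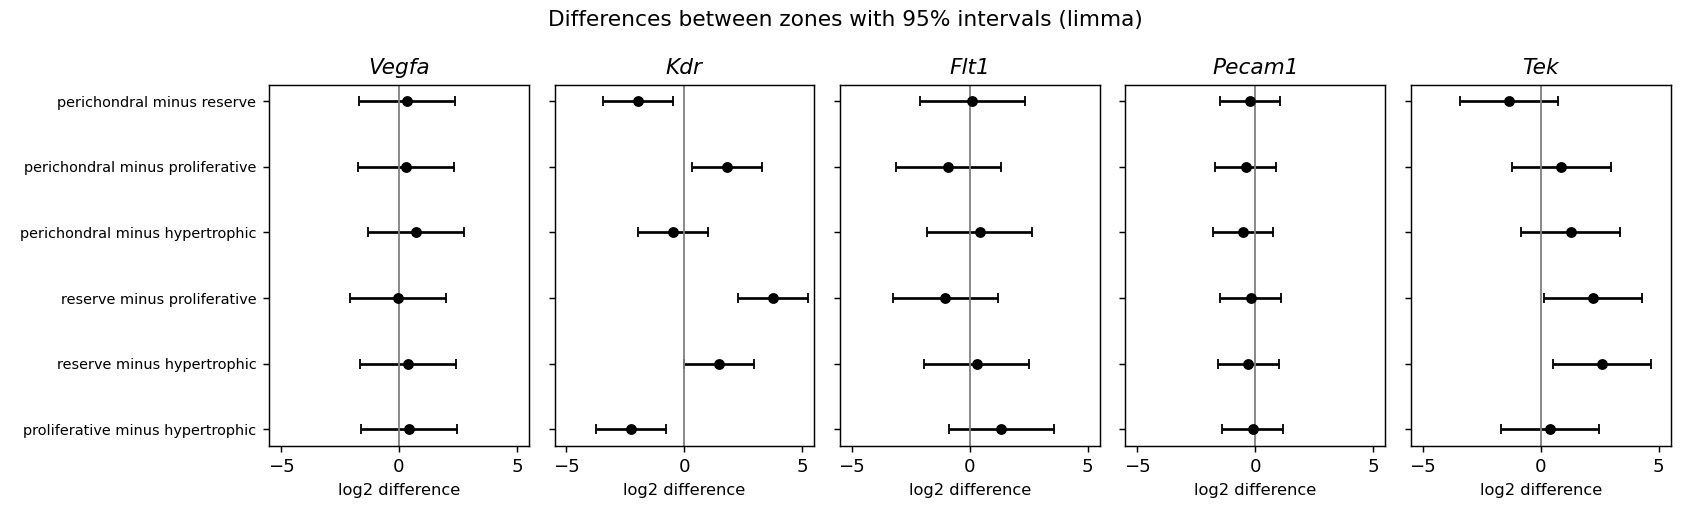
Differences between zones for the brightest probe set of each gene. The x axis is the log2 difference, the first-named zone minus the other, points are limma estimates from all 8 arrays and bars are 95% intervals. The interval of Kdr lies above 0 for reserve minus proliferative (2.27 to 5.24) and perichondral minus proliferative (0.31 to 3.28). It lies below 0 for perichondral minus reserve (-3.44 to -0.47) and proliferative minus hypertrophic (-3.75 to -0.78), and starts at 0 for reserve minus hypertrophic (0 to 2.97). Those of Tek lie above 0 for reserve minus proliferative (0.13 to 4.3) and reserve minus hypertrophic (0.52 to 4.69). All intervals of Vegfa, Flt1 and Pecam1 cross 0. The intervals use limma's moderated variances, which draw on all probe sets, and are not adjusted for the number of probe sets. They can be narrower than a gene's own spread would give, as for Tek (SE 0.99, spread within zones 1.31).

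Counted over the 9 member probe sets, 0 were called by limma's F test, where 0.0387% of all probe sets were called, and 1 had an unadjusted p under 0.05, that of Kdr, as had 6.2% of all probe sets. In the 6 pairs of zones 0 were called as well. Of all probe sets, 0% were called in either direction between perichondral and reserve and between perichondral and proliferative arrays. Between perichondral and hypertrophic arrays 0.029% were called higher and 0% lower, and between reserve and proliferative arrays 0.0226% higher and 0% lower. Between reserve and hypertrophic arrays these were 0.0193% and 0.00322%, and between proliferative and hypertrophic arrays 0.00322% and 0.00966%. At an unadjusted p under 0.05 the members had 1 probe set each between perichondral and reserve, perichondral and proliferative, and proliferative and hypertrophic arrays. Of all probe sets 3.75%, 5% and 5.52% did in these pairs. The members had 2 each between reserve and proliferative and between reserve and hypertrophic arrays, Kdr and Tek both times, where the shares over all probe sets were the highest of the 6 pairs at 7.64% and 8.1%. They had 0 between perichondral and hypertrophic arrays, beside 6.17% of all. With age as a replicate block Kdr was the only member called, between reserve and proliferative arrays.

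Arrays that do not overlap between zones were common in the whole series, so the members' counts are set against that background. Between reserve and proliferative arrays 2 of 9 member probe sets, Kdr and Tek, had both reserve arrays higher, against 18% of all probe sets, and 1 had both lower, against 21.7%. Between reserve and hypertrophic arrays these were 3 and 2 of 9, against 17.7% and 21.3%. Between perichondral and reserve arrays they were 2 and 1, against 18.6% and 16.1%. Counts of 2 higher and 2 lower were found for perichondral minus proliferative (16.3% and 17.9% of all), perichondral minus hypertrophic (16.7% and 18.2%) and proliferative minus hypertrophic arrays (15.7% and 15.8%). The members' counts of 1 to 3 of 9 stand beside these shares without a test.

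The dimmer probe sets of Vegfa, Kdr and Flt1 did not repeat the zone order of the brighter ones. For Kdr, 1397868_at was at 8.97 and 7.95 in perichondral arrays at 46 and 42 days, 7.51 and 7.56 in reserve, 8.47 and 6.05 in proliferative, and 5.75 and 7.87 in hypertrophic arrays. It never reached the other-organ level, and its difference of reserve minus proliferative arrays was 0.27 (SE 1.21, limma, adjusted p = 0.9764), against 3.75 for the brighter one. The reserve level of Kdr therefore rests on 1 probe set.

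For Vegfa, 1370081_a_at stayed below the other-organ level in all 8 arrays. It was at 6.74 and 7.24 in perichondral arrays, 5.12 and 5.08 in reserve, 5.15 and 5.21 in proliferative, and 6.82 and 5.17 in hypertrophic arrays, in each case at 46 and 42 days. Both perichondral arrays exceeded both reserve arrays, by 1.89 (SE 0.93, limma, adjusted p = 0.9999). For Flt1, 1369087_at had its lowest levels in hypertrophic arrays, at 5.68 and 5.45, and 1370492_a_at had its highest there, at 7.41 and 7.14. The 3 Flt1 probe sets thus placed the hypertrophic zone at opposite ends.

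**Figure D3:**
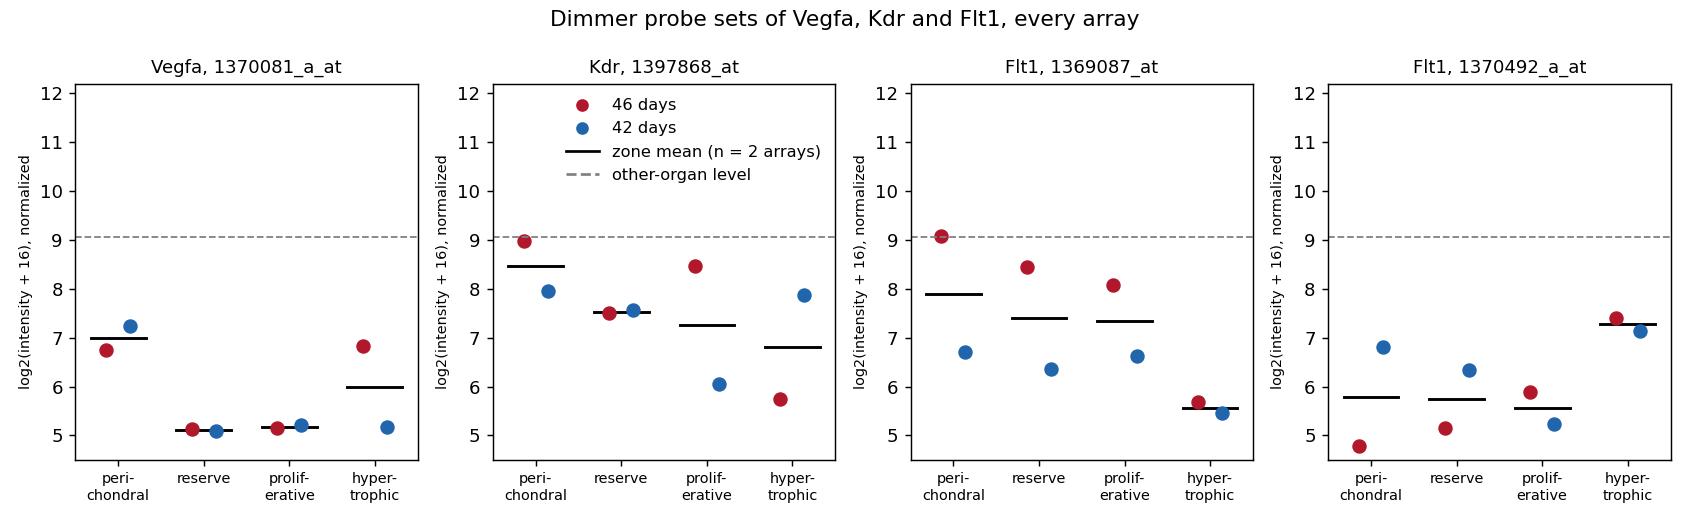
Levels of the dimmer probe sets of Vegfa, Kdr and Flt1 in every array. The y axis is log2(intensity + 16) after quantile normalization, points are single arrays (46 days left, 42 days right), bars are zone means of n = 2 arrays and the dashed line is the other-organ level of 9.06. Of these 32 values 1 lies above the line, that of 1369087_at in the 46-day perichondral array at 9.09.

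With zone as a covariate, none of the 9 member probe sets was called between 46 and 42 days with limma, and 0% of all probe sets were called in either direction. At an unadjusted p under 0.05 there was 1 of 9, the brighter Vegfa probe set, beside 8.43% of all probe sets. Vegfa was lower at 46 days in all 4 zones, with differences (46 minus 42 days) of -0.11 (perichondral), -3.72 (reserve), -0.58 (proliferative) and -2.08 (hypertrophic). The mean was 8.85 at 46 days and 10.48 at 42 days, a difference of -1.62 (SE 0.54, limma, adjusted p = 0.4471). Without either reserve array it was -0.92 or -0.90. The dimmer Vegfa probe set differed by 0.28 (SE 0.69, adjusted p = 0.9481).

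RNA quality moved with age as well, by the Gapdh ratio. It was 3.78 at 46 days and 4.47 at 42 days in perichondral, 3.96 and 8.15 in reserve, 5.39 and 7.10 in proliferative, and 3.63 and 4.30 in hypertrophic arrays. It was lower at 46 days in all 4 zones. The log2 difference of the ratio (46 minus 42 days) was -0.24 (perichondral), -1.04 (reserve), -0.40 (proliferative) and -0.25 (hypertrophic). Vegfa also differed most in the reserve zone, but by more in hypertrophic (-2.08) than in proliferative arrays (-0.58). Once the ratio (log2) entered the model, the Vegfa difference was 0.06 (limma, adjusted p = 0.9969). The ratio fell with age in every zone, so this fit cannot tell them apart. The part of RNA quality in the Vegfa difference was not tested. Age differences of the other members were 0.15 (SE 0.49) for Kdr, 0.34 (SE 0.75) for Flt1, -0.20 (SE 0.43) for Pecam1 and -0.01 (SE 0.69) for Tek, each with an adjusted p above 0.9 (limma). With the ratio in the model that of Tek was -2.33 (adjusted p = 0.8213). With the same covariate, Kdr in reserve minus proliferative arrays was 3.72 (limma, adjusted p = 0.1289).

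Among other genes of the VEGF family, 0 of 7 passed the threshold in any pair of zones with limma. Their median difference was 0.80 for reserve minus proliferative and -0.82 for proliferative minus hypertrophic arrays, beside medians of 0.06 and 0.00 over all 14217 genes. Nrp1, the neuropilin co-receptor that presents VEGF-A to VEGFR2, was at 10.21 and 10.55 in perichondral arrays at 46 and 42 days, 11.61 and 10.28 in reserve, 8.57 and 8.31 in proliferative, and 11.28 and 11.96 in hypertrophic arrays. Its proliferative arrays were the lowest, as for Kdr. Proliferative minus hypertrophic was -3.18 (SE 0.61, limma, adjusted p = 0.2384) and reserve minus proliferative 2.51 (SE 0.61, adjusted p = 0.2968) for Nrp1.

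Nrp2, the related neuropilin, was above the other-organ level in all 8 arrays, with zone means of 10.91 (perichondral), 11.63 (reserve), 10.83 (proliferative) and 11.66 (hypertrophic). Vegfc, a ligand of lymphatic vessels, was at 10.30 (perichondral), 9.42 (reserve), 10.33 (proliferative) and 9.25 (hypertrophic). Vegfd, another such ligand, was at 8.76 and 8.93 in the hypertrophic arrays and lower in every other array, yet below the other-organ level in all 8. Its difference of proliferative minus hypertrophic arrays was -3.50 (SE 1.15, limma, adjusted p = 0.8944).

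In the angiopoietin and TIE group, which includes the ligands and partners of Tek, 0 of 5 genes passed in any pair with limma. Angpt2, the angiopoietin that can oppose TIE2 signalling, had its highest zone mean in reserve arrays, as Tek did. It was at 6.06 and 7.06 in perichondral arrays at 46 and 42 days, 7.43 and 9.29 in reserve, 5.46 and 5.78 in proliferative, and 5.16 and 5.06 in hypertrophic arrays. Reserve minus hypertrophic was 3.25 (SE 1.10, adjusted p = 0.4973) for Angpt2, which passed the other-organ level in 1 array. Angpt1, the agonist ligand of TIE2, had zone means of 9.91 (perichondral), 9.27 (reserve), 8.95 (proliferative) and 8.73 (hypertrophic). Tie1, the sister receptor of Tek, stayed below the other-organ level in all 8 arrays, and so did the phosphatase Ptprb.

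Other endothelial markers gave no common zone pattern. Of 34 listed, 31 had a probe set and 0 passed in any pair of zones with limma. The highest zone mean was in perichondral arrays for 5, in reserve for 11, in proliferative for 6 and in hypertrophic for 9. The median of the list ran from 7.46 to 8.61 over the arrays, beside 6.84 to 7.66 for the median of the other-organ genes, and was higher than it in all 8. Of the 31 genes, 15 stayed below the other-organ level in all 8 arrays. Vwf, the clotting factor stored in endothelial cells, and Cldn5, the endothelial tight junction protein, were among those 15. Fli1, Prox1 and Lyve1 were above it in all 8. In these pooled tissues, fewer cells of a type and less RNA per cell cannot be told apart.

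The single markers named next had the widest spans among those with a highest zone mean above 8.25, and none had a call. Clec14a, a lectin of vessel walls, had its lowest zone mean in proliferative arrays at 8.17, against 10.53 in perichondral, 10.18 in reserve and 10.03 in hypertrophic arrays. Single arrays of Clec14a overlapped, at 6.88 and 9.46 in proliferative and 8.59 and 11.47 in hypertrophic arrays at 46 and 42 days. Its difference of perichondral minus proliferative arrays was 2.37 (SE 0.95, limma, adjusted p = 0.9626). Plvap, a protein of fenestrated endothelium, was at 8.74 and 8.05 in reserve arrays at 46 and 42 days and at 6.20 and 5.13 in proliferative arrays, a difference of 2.72 (SE 1.18, adjusted p = 0.6261). Esm1, which VEGF-A is known to induce, had zone means of 7.05 (perichondral), 9.24 (reserve), 8.09 (proliferative) and 7.74 (hypertrophic). Its highest and lowest single arrays were both hypertrophic, at 10.10 (46 days) and 5.39 (42 days). Apln, the ligand of the apelin receptor, was at 7.89 (perichondral), 5.94 (reserve), 8.56 (proliferative) and 6.76 (hypertrophic), with the lowest zone mean in reserve. Its lowest single array was the 42-day hypertrophic one at 4.81, while the 46-day hypertrophic array was at 8.70.

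Genes of mural cells, the pericytes and smooth muscle around vessels, had 0 of 12 called. Their median difference of reserve minus proliferative arrays was -0.45, of opposite sign to the difference of Kdr. Myh11, a smooth muscle myosin, was at 8.94 (perichondral), 7.33 (reserve), 9.15 (proliferative) and 9.10 (hypertrophic). Rgs5, a pericyte regulator of G protein signalling, was at 7.14 (perichondral), 8.26 (reserve), 6.86 (proliferative) and 6.91 (hypertrophic), all below the other-organ level. Cspg4 and Higd1b, further pericyte genes, had zone means from 6.61 to 8.46 and from 6.97 to 8.51.

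Secreted inhibitors of vessel growth had 0 of 9 called and a median of 1.14 for reserve minus proliferative arrays, beside 0.06 over all genes. Adamts1, a protease that binds VEGF-A, was at 11.29 and 10.06 in perichondral arrays at 46 and 42 days, 10.65 and 11.33 in reserve, 7.22 and 7.51 in proliferative, and 6.80 and 10.23 in hypertrophic arrays. Reserve minus proliferative was 3.63 (SE 0.91, limma, adjusted p = 0.3077) and perichondral minus proliferative 3.31 (SE 0.91, adjusted p = 0.9626) for Adamts1. Cnmd, which encodes chondromodulin, the vessel inhibitor of cartilage, was bright in all zones, at 11.18 (perichondral), 12.13 (reserve), 11.39 (proliferative) and 10.74 (hypertrophic). Sparc, a matrix protein that binds VEGF-A, was at 15.52 (perichondral), 15.44 (reserve), 13.66 (proliferative) and 12.65 (hypertrophic), and Col18a1, the source of endostatin, stayed below the other-organ level throughout.

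Oxygen-sensing and hypoxia response genes, which include known regulators of Vegfa, had 0 of 15 called and medians from 0.06 to 0.38 over the 6 pairs. Ndrg1, a hypoxia-induced gene, was at 7.84 (perichondral), 9.25 (reserve), 7.82 (proliferative) and 6.52 (hypertrophic). Epas1, which encodes HIF-2 alpha, was at 8.67 (perichondral), 9.82 (reserve), 8 (proliferative) and 8.30 (hypertrophic). Egln3, an oxygen sensor, and Car9, a carbonic anhydrase, had their lowest zone mean in reserve arrays, at 6.76 and 7.50. Between the ages the list had a median of -0.65 (46 minus 42 days), with 3 of 15 genes higher at 46 days, beside -0.06 over all genes. Other lists had medians of like size, at -0.80 for cartilage, -0.67 for inhibitors of vessel growth, -0.66 for hypertrophic chondrocyte and -0.55 for leukocyte genes. The Gapdh ratio differed between the ages in all 4 zones, and its part in these medians was not tested.

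The medians of marrow and blood cell lists were also highest in the reserve arrays, where Kdr was highest. The reserve zone had the highest mean for 8 of 10 leukocyte, 7 of 7 osteoclast and 5 of 7 erythroid genes. Ptprc and Coro1a were highest in hypertrophic arrays, and Rhag and Slc4a1 in proliferative arrays. The median of the leukocyte list of 10 genes was 9.96 and 9.81 in reserve arrays at 46 and 42 days and ran from 6.19 to 9.72 in the other 6 arrays. For the osteoclast list of 7 genes it was 9.54 and 9.83 in reserve, against 5.85 to 8.81 elsewhere, and for the erythroid list of 7 genes 9.97 and 9.97, against 7.45 to 8.79. The summed deposited intensity of the leukocyte list was 31700 and 38500 in reserve arrays and ran from 1100 to 11800 elsewhere. That of the osteoclast list was 11900 to 22600 in reserve arrays and 467 to 7010 elsewhere, and that of the erythroid list 13000 to 39400 and 2020 to 11600. None of the markers was at 0, the lowest deposited intensity of the series being 1.39. In the proliferative arrays, where Kdr was lowest, 0 to 1 of 10 leukocyte and 0 of 7 osteoclast genes lay above the other-organ level. The perichondral arrays were much the same, with 0 and 2 of 10 leukocyte and 0 of 7 osteoclast genes above it, while Kdr was at 9.58 and 9.59 there. The part of these cells in the Kdr difference was not tested.

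Between reserve and proliferative arrays 1 of 10 leukocyte genes (S100a9), 1 of 7 osteoclast genes (Mmp9) and 1 of 8 hypertrophic chondrocyte genes (Mmp13) were called higher with limma. Ptprc, the common leukocyte antigen, was at 9.80 and 9.38 in the 46-day and 42-day reserve arrays and at 8.22 and 7.11 in the proliferative ones (1.93, SE 0.89, adjusted p = 0.6488). Pecam1 did not follow these lists, at 9.49 and 10.07 in reserve arrays and 9.64 and 10.30 in proliferative arrays. The cartilage list had medians from 10.19 to 13.49 and 6 to 8 of its 8 genes above the other-organ level in each array.

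**Figure D4:**
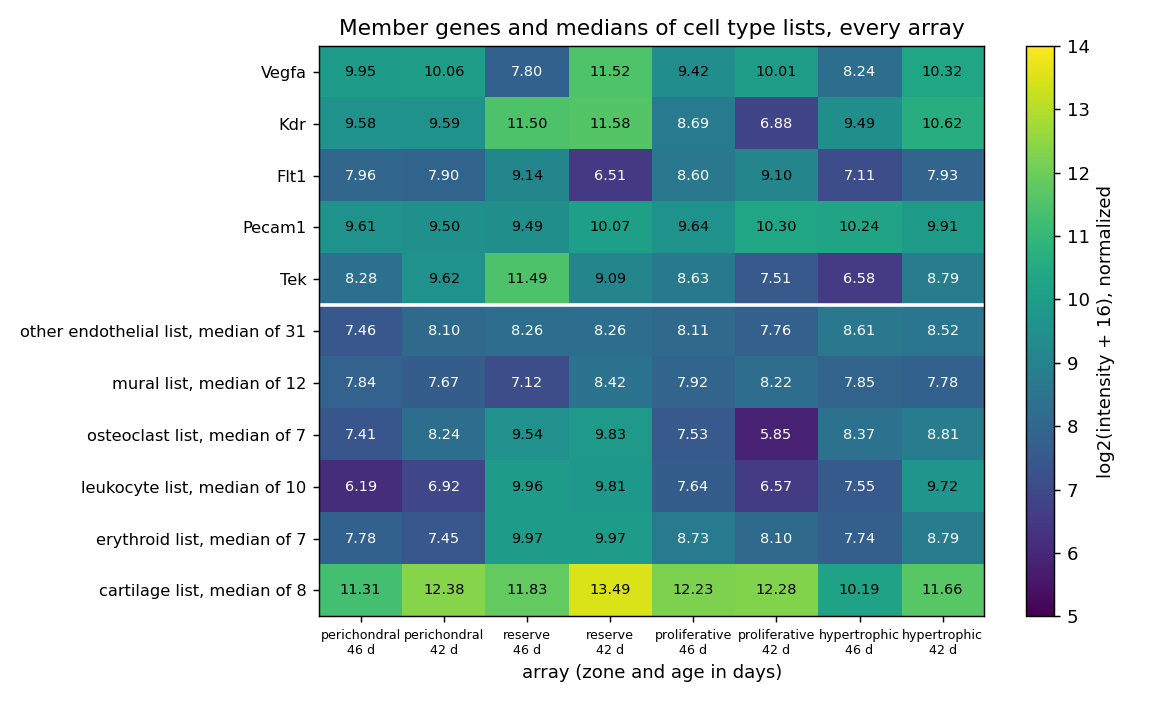
Levels of the 5 genes and medians of 6 cell type lists in every array. Columns are arrays by zone and age, colours and printed values are log2(intensity + 16) after quantile normalization, and each list row is the median over its measured genes. Kdr and the osteoclast, leukocyte and erythroid medians are highest in both reserve arrays, while Pecam1 and the other endothelial median show no such order.

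As a description of likeness, each member was correlated with genes whose mean lay above 8.25, over the 8 arrays. Arrays of one zone share a zone, so these values carry no test. The genes most like Kdr, of 6552, were Grn (r = 0.955), Parl (0.952), Nufip1 (0.941), Xdh (0.938) and Tgfbr1 (0.938), and 21 genes exceeded 0.9. For Tek they were Znhit6 (r = 0.972), Dek (0.948), Eif3h (0.947), Prkar2b (0.946) and Cct5 (0.943). For Vegfa they were Psmc1 (r = 0.928), Inf2 (0.919), Klhdc3 (0.914), Cad (0.913) and Fkbp11 (0.913). For Flt1 they were Zfand5 (r = 0.954), Thg1l (0.906), Cul2 (0.904), Ddc (0.903) and Ing2 (0.9), and for Pecam1 Slc14a1 (r = 0.931), Slc6a9 (0.891), LOC102549269 (0.882), Vps13c (0.878) and P2rx7 (0.876). Above 0.9 lay 12 genes for Tek, 5 each for Vegfa and Flt1 and 1 for Pecam1. Flt1, with a mean below 8.25, was no candidate for the other members, and none of the other members was among these 5 genes of another.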

How the data were processed

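The authors deposited linear array intensities for 31099 probe sets, and per the submitters' processing notes MAS5, GCOS and RMA were used, without versions or roles. Per the labels RNA was extracted on RNeasy columns, amplified with Ovation and labelled with biotin. Control probe sets (57) were removed. The array medians of log2(intensity + 16) differed by 0.589, over the limit of 0.1 set for quantile normalization, which was then applied with limma 3.58.1 in R 4.3.3. With a share of 0.02 trimmed, array means lay between 497.13 and 498.46. Precision is limited by having 8 arrays. Gene names came from the platform annotation, in which 20826 probe sets had 1 symbol, 436 several and 9780 none.

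All 8 arrays entered a model of zone means with moderated, trended variances (residual degrees of freedom 4, prior 12.58), with Benjamini-Hochberg adjustment over 31042 probe sets. The age model also held zone and left 3 residual degrees of freedom. The fit was tested on simulated data. Text differences use each gene's brightest probe set. From each other list up to 4 genes were to be named, those called and then those with the widest span of zone means and a highest zone mean above 8.25, and the 5 genes most like each member. Other genes were named after their values were seen: Ptprc, Vwf, Cldn5, Fli1, Prox1, Lyve1, Coro1a, Rhag and Slc4a1. Members, lists and alternatives were chosen with earlier results of these data known. Both ages occur in each zone, and the paired model takes age as a replicate block. Across probe sets the difference between ages correlated between zones with r from 0.0225 to 0.0806.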

Additional observations from a re-analysis of the deposited data

Results flagged for a closer look

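The difference between 46 and 42 days ran in opposite directions, each by more than 1 on the log2 scale, in different zones for Kdr and Tek. For Kdr it was 1.80 in proliferative and -1.13 in hypertrophic arrays. For Tek it was 2.40 in reserve and 1.12 in proliferative arrays, against -1.34 in perichondral and -2.21 in hypertrophic arrays. Each value compares 1 array with 1 array, so the difference between zones was not tested.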

How the results depend on the processing

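Of the 30 zone differences of the 5 genes, 15 changed sign under at least 1 of 18 alternatives, and 1 was called under any, that of Kdr between reserve and proliferative arrays. That call was made with age as a replicate block (3.75, adjusted p = 0.02496), after leaving out a hypertrophic array, that of 46 days (3.80, adjusted p = 0.03389) or that of 42 days (3.73, adjusted p = 0.04241). The cause of these changes was not tested. The block changed no other call among the members. Kdr in perichondral minus hypertrophic arrays was 0.59 with its probe sets averaged. The age difference of Kdr was -0.03 with median-centred arrays, and that of Tek 0.18 as deposited and 0.06 with a pseudocount of 64. With the Gapdh ratio as a covariate the age difference was 0.06 for Vegfa, -1.53 for Flt1, 0.22 for Pecam1 and -2.33 for Tek, against -0.01 for Tek without it.

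With 1 array left out, perichondral minus hypertrophic ran from -0.32 to 1.77 for Vegfa and from -1.05 to 0.10 for Kdr. The age difference ran from -0.42 to 0.57 for Kdr, from -0.43 to 0.73 for Flt1 and from -0.82 to 0.73 for Tek. The count of probe sets called in the F test ran from 2 to 80, lowest without the 42-day reserve and highest without the 42-day hypertrophic array. Counts in the pairs ran from 0 to 1 for perichondral minus reserve, 0 to 5 for perichondral minus proliferative, 0 to 50 for perichondral minus hypertrophic, 0 to 45 for reserve minus proliferative, 0 to 167 for reserve minus hypertrophic and 0 to 12 for proliferative minus hypertrophic. The count for age ran from 0 to 5.

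Over all probe sets the F test called 12, the pairs 0, 0, 9, 7, 7 and 4 in the order just given, and age 0. With age as a replicate block these were 96 in the F test and 3, 13, 55, 60, 38 and 11 in the pairs. Median-centring gave 5 in the F test, 1 for perichondral minus hypertrophic, 1 for reserve minus hypertrophic, 0 for proliferative minus hypertrophic and 140 for age. Brighter probe sets alone gave 4 in the F test and 2, 3, 2 and 0 in the pairs from perichondral minus hypertrophic on. Without a variance trend each count was 0. Values as deposited gave 14 for reserve minus proliferative and 45 for age, a pseudocount of 64 gave 16 and 5 for these, and a pseudocount of 1 gave 2 for proliferative minus hypertrophic. The Gapdh covariate gave 3 for perichondral minus proliferative, 0 for reserve minus hypertrophic, 0 for proliferative minus hypertrophic and 1 for age. Only the arrays of both zones gave 8 for perichondral minus reserve, 27 for reserve minus proliferative, 0 for reserve minus hypertrophic and 1 for proliferative minus hypertrophic. With 2 arrays per zone, and members near the other-organ level, small differences were not detectable.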
